A study of Homo sapiens with 18 samples.

Results

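The 49 genes described here carry out DNA replication in S phase. They were taken by their symbols from the count tables, and all 49 of them were found among 26941 genes. The rule named the genes and used no fold change, but they were chosen with earlier results of these data known. They comprise the 6 subunits of the origin recognition complex (ORC), 3 licensing genes (*CDC6*, *CDT1* and its inhibitor *GMNN*), the 6 subunits of the MCM2-7 helicase, 10 genes that activate the helicase, *MCM8*, 9 polymerase and primase genes, 6 genes of the sliding clamp and its loader, 2 genes of Okazaki fragment maturation, the 3 RPA subunits and 3 genes of deoxynucleotide supply. RNA was sequenced from 18 samples of REH, which carries the ETV6-RUNX1 fusion, and of 697 and RCH-ACV. These are established lines of B-cell precursor acute lymphoblastic leukemia, a malignancy of immature B cells. In each line 3 samples had received 300 nM of siRNA against *SOX11*, which encodes a SoxC transcription factor, and 3 a non-specific control siRNA, and RNA was taken 48 h after nucleofection. The sample titles call the first group KO, but the treatment is a transient knockdown and no gene was deleted. Each line is a single culture model, so genotype and culture cannot be told apart between lines, and no sorting by cell cycle phase is described. In such bulk samples fewer cells in S phase and less RNA of these genes per cell cannot be told apart.

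Replication begins when ORC binds an origin in G1 and, with CDC6 and CDT1, loads the MCM2-7 ring onto DNA. At the start of S phase the kinases CDC7-DBF4 and CDK2 with cyclin E, together with MCM10, join CDC45 and the GINS complex to that ring and make it an active helicase. Polymerase α-primase lays primers, polymerases δ and ε extend them on the PCNA clamp that RFC loads, FEN1 and LIG1 join the Okazaki fragments, RPA covers single strands, and ribonucleotide reductase and thymidine kinase supply the deoxynucleotides. Many of these genes are textbook targets of the E2F transcription factors, which are active from late G1 when RB is phosphorylated, and rapidly dividing leukemia lines express all of the machinery.

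Total counts on the 26941 genes ranged from 7039594 to 16592492 per sample, the deepest being replicate 2 of the RCH-ACV samples with *SOX11* siRNA. Levels are given as CPM (counts scaled to a common library size), adjusted by TMM within a line, and a change was called at an adjusted p-value under 0.05 (Benjamini-Hochberg over all tested genes, edgeR's quasi-likelihood test, two-sided). *SOX11* itself stood at 102, 101 and 97 CPM in the REH control samples and at 49.8, 55.9 and 63.7 CPM with *SOX11* siRNA. Its log2 fold change was -0.83 in REH, -0.91 in 697 and -0.67 in RCH-ACV (adjusted p = 1.41e-08, 2.33e-04 and 2.51e-06, edgeR), without overlap of the groups in any line. The 10 B-lineage markers summed to 2452 CPM or more in every sample, against at most 44.5 CPM for 6 T-lineage, 31.5 for 6 myeloid, 0.405 for 4 erythroid and 8.92 for 6 stromal or epithelial markers. Of these non-B markers 2 passed the test, *MPO*, which was lower in REH at 8.24 CPM, and *PECAM1*, which was higher in RCH-ACV at 8.23 CPM. The summed B-lineage level was higher with *SOX11* siRNA in REH (5550 to 5598 CPM against 5152 to 5316) and lower in 697 (2452 to 2571 against 2743 to 2834), and its part in the results was not tested. The number of genes called in RCH-ACV, 991, was 2518 without replicate 3 of the samples with *SOX11* siRNA and 386 to 536 without any 1 of the other 5 samples.

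Because E2F factors regulate many of these genes, the promoters were searched for the words TTTGGCGC, TTTCCCGC, TTTGCCGC and TTTCGCGC on both strands, in windows of 250 bases before to 50 after each annotated start (RefSeq, GRCh38.p14, a different build from the hg19 used for the counts). A window was given for 42 of the 49 genes, and *MCM4*, *MCM5*, *CCNE2*, *GINS4*, *POLD3*, *RPA2* and *RPA3* had none. At least 1 word was present for 20 of the 42 genes (47.6%), against 3.99% of all 27305 genes with a window. TTTCCCGC was found for 10 of them, TTTGGCGC for 8, TTTCGCGC for 5 and TTTGCCGC for 0. The windows below are those of the called genes that held a word (*CDC7*, *POLA1* and *POLA2*) and of 4 genes followed in every sample and called in no line (*CDC6*, *CDT1*, *MCM2* and *PCNA*), on the strand of the gene and with the word in capitals, where a word of the other strand reads as its reverse complement.
CDC6 (chr17:40287875-40287904, plus strand): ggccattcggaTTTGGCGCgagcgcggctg
CDT1 (chr16:88803743-88803772, plus strand): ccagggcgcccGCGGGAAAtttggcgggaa
MCM2 (chr3:127598402-127598431, plus strand): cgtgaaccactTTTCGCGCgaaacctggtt
CDC7 (chr1:91501033-91501062, plus strand): gtgcagttcctTTTCCCGCcccccttcgga
POLA1 (chrX:24693770-24693799, plus strand): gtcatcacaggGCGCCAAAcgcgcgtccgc
POLA2 (chr11:65261898-65261927, plus strand): ttggctcccggTTTCGCGCatgcgtgcact
PCNA (chr20:5126663-5126692, minus strand): cagcgtcagggGCGGGAAAaggcgtgcgtt
The palindromic site of *MCM2* holds a second, overlapping copy of its word on the other strand. The words of *CDC6* and *MCM2* begin 8 and 3 bases after the start, and those of the other 5 genes lie before it. Of the 10 genes called in any line, 9 had a window and 3 of these, *CDC7*, *POLA1* and *POLA2*, held a word, as did 17 of the 33 genes called in no line. A match of letters is a description and shows neither binding nor regulation.

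In REH most replication genes had slightly higher levels with *SOX11* siRNA, and few of them passed the test. Of the 49 genes 6 rose (*TK1*, *FEN1*, *CCNE2*, *POLA2*, *POLA1* and *RRM2*, by 9.41% to 18.2%) and 1, *ORC4*, fell. Over all 12787 tested genes 4.65% were called, 2.64% higher and 2.02% lower, so that 12.2% of the replication genes were called higher against 2.64% of all genes. Among the 8134 genes at 20 CPM or more in the control samples, a limit chosen after seeing the data, 3.59% were called higher and 2.51% lower. The log2 fold change was above 0 for 37 of the 49 genes, with a median of 0.07 against a median of -0.0023 over all tested genes. All 3 samples with *SOX11* siRNA lay above all 3 control samples for 18 genes (36.7%), against 10.9% of all tested genes, and below them for 1 gene, against 10.6%. The replication genes took 1.05% to 1.07% of all counts in the samples with *SOX11* siRNA and 1.01% to 1.02% in the control samples. These shares were 0.823% to 0.839% and 0.816% to 0.822% in 697 and 0.838% to 0.839% and 0.826% to 0.828% in RCH-ACV. The groups did not overlap in any line. They are shares of raw counts without TMM, in which the most abundant genes weigh most. The median over the 49 genes of log2 CPM (with TMM) minus the line mean was also taken in each sample. Its groups did not overlap in REH but did in the other lines. With *SOX11* siRNA and control siRNA it was -0.015 to 0.06 and -0.021 to 0.017 in 697. In RCH-ACV it was -0.018 to -0.0023 and -0.0082 to 0.025.

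**Figure D1:**
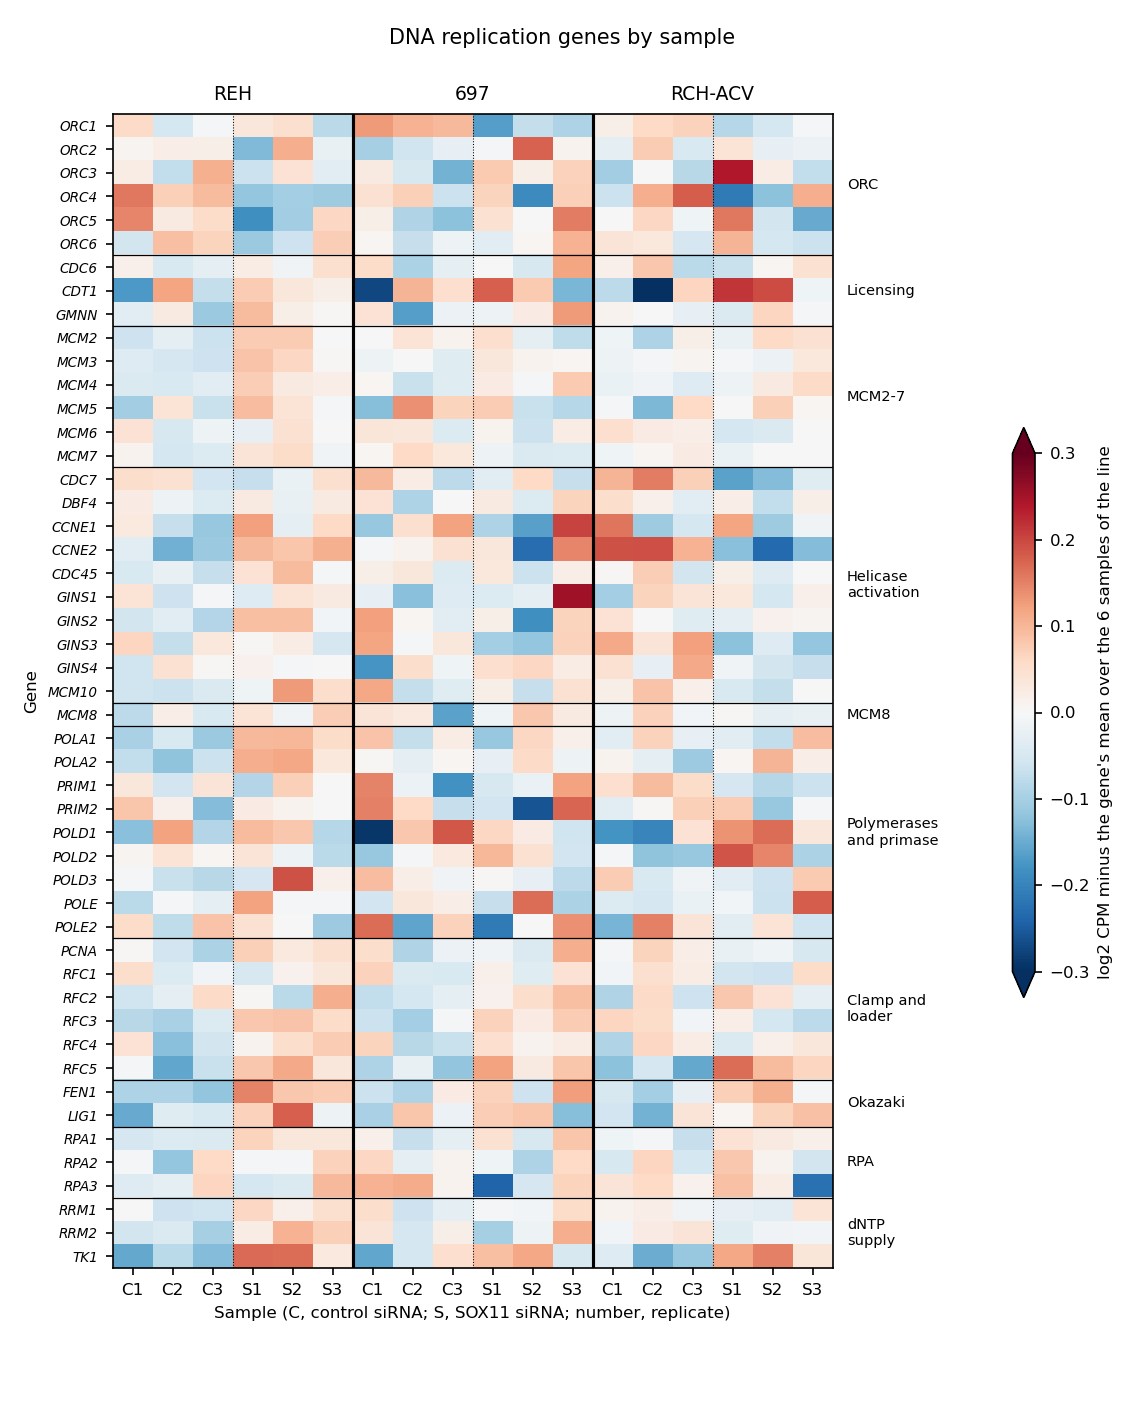
Heat map of the 49 replication genes (rows, grouped by role) in the 18 samples (columns, by line, control samples C1 to C3 and *SOX11* siRNA samples S1 to S3). Color gives log2 CPM minus the mean of the gene over the 6 samples of the line, with the scale ending at 0.3 in either direction. In REH most rows outside ORC turn from blue to red between the groups, whereas in 697 and RCH-ACV color varies within the groups about as much as between them for most genes.

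The lowest p-values in REH belonged to deoxynucleotide supply and Okazaki fragment maturation. *TK1* encodes the cytosolic thymidine kinase of the salvage pathway (chromosome 17 of hg19 from 76170172 to 76183314). It stood at 129, 135 and 131 CPM in the 3 REH control samples and 161, 161 and 146 CPM with *SOX11* siRNA. The groups did not overlap, and the increase of 18.2% is a log2 fold change of 0.24 (SE 0.05, adjusted p = 0.00199, edgeR, n = 3 each).

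*FEN1*, the flap endonuclease that trims Okazaki fragments (chromosome 11 of hg19 from 61560383 to 61564710), was at 210.1, 210.1 and 206 CPM in the REH control samples and at 248, 237 and 236 CPM with *SOX11* siRNA. Its log2 fold change was 0.20 (SE 0.04, adjusted p = 0.00141, edgeR), again without overlap. *LIG1*, the ligase that acts after it, had a log2 fold change of 0.15 that did not pass the threshold (adjusted p = 0.0909), although all 3 samples lay above the control samples. *RRM2*, the regulated subunit of ribonucleotide reductase (chromosome 2 of hg19 from 10260825 to 10351851), stood at 349, 352 and 339 CPM and 368, 390.2 and 381 CPM, a log2 fold change of 0.13 (SE 0.03, adjusted p = 0.0289, edgeR). For *RRM1*, the other subunit, the value was 0.08 (adjusted p = 0.172).

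Both large subunits of polymerase α were called higher in REH, *POLA2* close to the threshold, and neither subunit of its primase was called. *POLA1*, the catalytic subunit (chromosome X of hg19 from 24711990 to 25015103), stood at 153, 159 and 152 CPM in the control samples and 175, 175 and 170.1 CPM with *SOX11* siRNA, a log2 fold change of 0.16 (SE 0.04, adjusted p = 0.0166, edgeR). *POLA2*, its accessory subunit (chromosome 11 of hg19 from 65029384 to 65073430), was at 83.1, 80.4 and 83.6 CPM and 94.3, 94.8 and 89.4 CPM, with 0.17 (SE 0.05, adjusted p = 0.0438). The call of *POLA2* was lost under 10 of the 15 alternatives tried (other settings of the fit and single samples left out) and that of *POLA1* under 4. In both genes every sample with *SOX11* siRNA lay above every control sample. The primase subunits *PRIM1* and *PRIM2* had log2 fold changes of -0.01 and 0.01, and the subunits of polymerases δ and ε ranged from -0.04 (*POLD2*) to 0.10 (*POLD3*) without a call. Another annotated gene on the same strand covers 55.8% of the exon bases of *POLA2*, and another covers 49.7% of those of *PRIM2*, so the counts of these genes cannot be told apart from those of their neighbors.

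Among the genes that activate the helicase, *CCNE2*, the gene of cyclin E2 (chromosome 8 of hg19 from 95891998 to 95908906), rose in REH from 88, 81.4 and 83.2 CPM to 96.1, 95.4 and 96.8 CPM (log2 fold change 0.19, SE 0.05, adjusted p = 0.0223, edgeR). The groups did not overlap. *INTS8* on the other strand covers 57.1% of the exon bases of *CCNE2*, so its counts may include reads of *INTS8*. The related *CCNE1* was at 47.1, 44 and 42.6 CPM and 50.3, 45.3 and 48.1 CPM, groups that overlapped, with a log2 fold change of 0.11 (adjusted p = 0.447). *GINS2* and *MCM10*, which help to assemble and steady the active helicase, had values of 0.11 and 0.11 and groups without overlap, but neither passed the threshold (adjusted p = 0.152 and 0.151).

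The differences of the MCM2-7 ring and of the clamp and its loader were small in REH, and 0 of their 12 genes were called. All 6 MCM genes had log2 fold changes above 0, from 0.01 (*MCM6*) to 0.10 (*MCM2*). *MCM2* stood at 591, 606 and 591 CPM in the control samples and 651, 651 and 618 CPM with *SOX11* siRNA, which do not overlap, with an adjusted p of 0.0668 (edgeR), and an annotated antisense gene covers 32.4% of its exon bases. *PCNA*, the sliding clamp, was at 683, 655 and 638 CPM and 716, 695 and 704 CPM, also without overlap, with a log2 fold change of 0.10 (95% confidence interval 0.03 to 0.16, adjusted p = 0.0866). Of the loader subunits *RFC5* and *RFC3* had the highest values, 0.15 and 0.15, and *RFC1* the lowest, -0.002.

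The licensing genes were not called in REH. *CDC6*, the ATPase that helps load the ring, was at 192, 184 and 186 CPM in the control samples and 193, 189 and 196 CPM with *SOX11* siRNA (log2 fold change 0.04, 95% confidence interval -0.04 to 0.12). *CDT1*, its partner, was at 116, 142 and 124 CPM and 138, 134 and 132 CPM, and the spread of the control samples took in all values with *SOX11* siRNA. *GMNN*, which encodes geminin, the inhibitor of CDT1, had a log2 fold change of 0.07. The 3 RPA genes ranged from 0.01 (*RPA3*) to 0.09 (*RPA1*), and *MCM8* had 0.07, all without a call.

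All 6 ORC genes had log2 fold changes below 0 in REH, from -0.22 (*ORC4*) to -0.00086 (*ORC1*). *ORC4* (chromosome 2 of hg19 from 148687965 to 148779173) fell from 53, 49.8 and 50.7 CPM to 43.8, 44.2 and 44.1 CPM, groups without overlap, by 14% (log2 fold change -0.22, SE 0.06, adjusted p = 0.0391, edgeR). *ORC5* had -0.15 (adjusted p = 0.401) and *ORC1*, the largest subunit, stood at 138, 128 and 132 CPM in the control samples and 136, 137 and 126 CPM with *SOX11* siRNA, which overlap.

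The number of REH calls depended on single samples. It was 3 without replicate 1 and 2 without replicate 2 of the samples with *SOX11* siRNA. Without replicate 3 of the control samples it was 2. Without replicate 3 of those with *SOX11* siRNA it was 8, when *MCM2*, *MCM3* and *LIG1* passed and *CCNE2* and *ORC4* did not. Over all tested genes these fits called 331, 375, 299 and 521 in this order, in place of 595. *TK1* and *FEN1* passed in each of these fits and under all 15 alternatives tried, and *ORC4* was lost when any 1 of the 6 samples was left out. Of the 15 alternatives, *ORC4* was lost under 9, *CCNE2* under 7 and *RRM2* under 5.

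**Figure D2:**
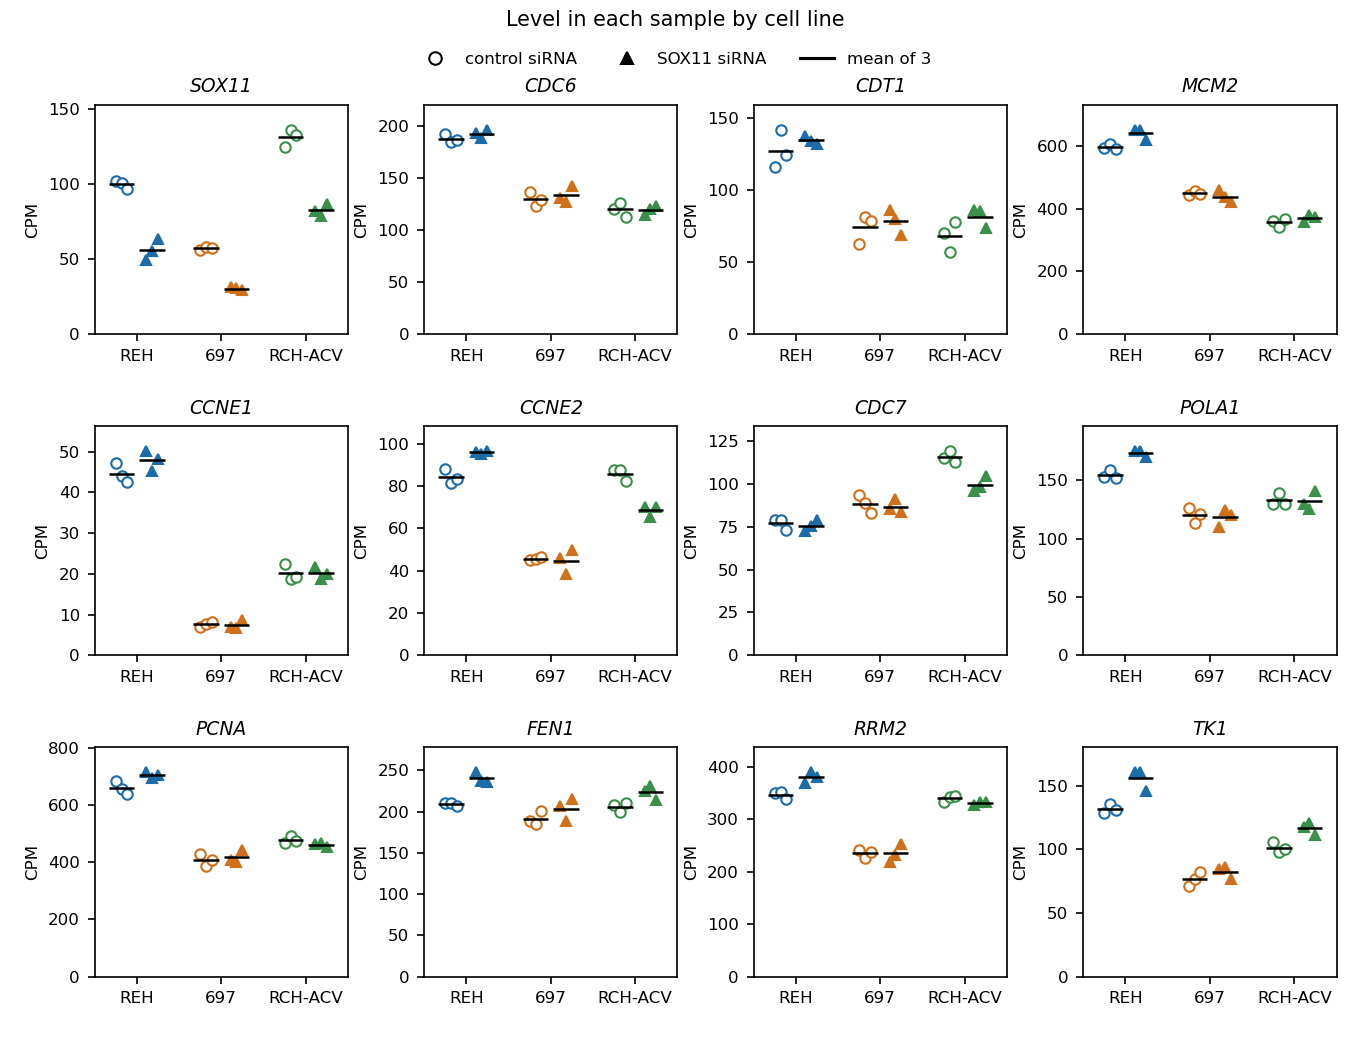
CPM (TMM-scaled within a line, axes from 0) of *SOX11* and 11 replication genes in each of the 18 samples, with open circles for control siRNA, triangles for *SOX11* siRNA and a line at the mean of 3. *SOX11* fell in every line, *CCNE2* was higher in REH and lower in RCH-ACV, and *TK1* was higher in both of these lines.

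In 697 no replication gene was called. Over all 12169 tested genes 0.559% were called in this line, 0.0822% higher and 0.477% lower. At an unadjusted p under 0.05 there were 2 of the 49 replication genes, *ORC1* and *RFC5*, against 1011 of all 12169 tested genes. The Wald test of DESeq2 called 0 of the 49 as well. The log2 fold change was above 0 for 29 of the 49 genes, with a median of 0.02 against -0.0035 over all tested genes, and the 95% confidence intervals of all 49 genes lay within -0.38 to 0.34. All 3 samples with *SOX11* siRNA lay above the control samples for 5 genes and below them for 2, or 10.2% and 4.08%, against 6.15% and 7.81% of all tested genes.

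The lowest value in 697 was that of *ORC1*, which stood at 90.8, 89.2 and 88.8 CPM in the control samples and 74.1, 79.1 and 77.9 CPM with *SOX11* siRNA. These groups did not overlap, but the log2 fold change of -0.22 did not pass the threshold (SE 0.06, adjusted p = 0.211, edgeR). A single fit over all 18 samples, which borrows the spread of the other lines, called it (adjusted p = 0.0404). The highest value was that of *RFC5*, at 95.8, 101 and 94 CPM and 111, 104 and 108 CPM, also without overlap (log2 fold change 0.16, adjusted p = 0.471).

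The genes that rose in REH gave these values in 697. *TK1* was at 71.1, 76.3 and 82 CPM in the control samples and 84.4, 85.8 and 76.6 CPM with *SOX11* siRNA (log2 fold change 0.11, 95% confidence interval -0.06 to 0.27). *CCNE2* was at 44.9, 45.4 and 46.6 CPM and 46.1, 38.5 and 49.9 CPM (-0.02, -0.24 to 0.19). *RRM2* was at 241, 227 and 238 CPM and 219, 232 and 253 CPM (-0.0019, -0.13 to 0.13). In all 3 genes the groups overlapped.

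*FEN1*, *POLA1* and *POLA2* had log2 fold changes of 0.09, -0.02 and 0.01 in 697. *CDC6* was at 137, 123 and 129 CPM in the control samples and 131, 127 and 143 CPM with *SOX11* siRNA, and *CDT1* at 62.9, 81.7 and 78.7 CPM and 86.2, 80.3 and 69.1 CPM. *MCM2* was at 444, 456 and 447 CPM and 459, 435 and 421 CPM, and *PCNA* at 427, 387 and 406 CPM and 409, 399.6 and 444 CPM. Neither licensing gene, nor the helicase subunit, nor the clamp differed beyond the spread between samples. *CCNE1*, the gene of cyclin E1, was low at 6.97, 7.83 and 8.24 CPM and 7.08, 6.73 and 8.75 CPM, and its interval was the widest of the 49, from -0.38 to 0.34.

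In RCH-ACV changes went in both directions. Of the 49 genes 3 rose (*POLD1*, *RFC5* and *TK1*) and 2 fell (*CCNE2* and *CDC7*). Over all 12963 tested genes 7.64% were called, 3.68% higher and 3.97% lower, and the replication genes, with 6.12% higher and 4.08% lower, stood near that background. The log2 fold change was above 0 for 19 genes, with a median of -0.01 against 0.0051 over all tested genes. The groups did not overlap for 4 genes above and 8 below the control samples, or 8.16% and 16.3%, against 12.2% and 13.9% of all tested genes.

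*CCNE2* had the largest change of the 49 genes in any line. It stood at 87.6, 87.8 and 82.5 CPM in the RCH-ACV control samples and 70.3, 65.2 and 70.1 CPM with *SOX11* siRNA, without overlap. The decrease of 20.6% is a log2 fold change of -0.33 (SE 0.06, adjusted p = 0.00166, edgeR). The last exon of *INTS8* on the other strand covers most of the long last exon of *CCNE2*, 57.1% of its exon bases. The library kit keeps the strand, but whether the counting used it is not given in the sources used here, so reads of these genes may have been added together. *INTS8* was called lower in RCH-ACV too, with a log2 fold change of -0.16 (adjusted p = 0.0317, edgeR), from 183, 187 and 186 CPM to 166, 167 and 166 CPM. In REH and 697 *INTS8* had values of 0.06 and 0.07 (adjusted p = 0.588 and 0.893).

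*CDC7*, the kinase that phosphorylates the MCM ring (chromosome 1 of hg19 from 91966408 to 91991321), fell in RCH-ACV from 115, 119 and 113 CPM to 95.9, 97.9 and 105 CPM (log2 fold change -0.22, SE 0.05, adjusted p = 0.0162, edgeR), without overlap. Its activating subunit *DBF4* had -0.03 (adjusted p = 0.807). All 10 genes of helicase activation had log2 fold changes below 0 in this line, with a median of -0.06. Of all tested genes 51.5% lay above 0. Of the 10 genes 4 (40%) lay below the control samples without overlap, against 13.9% of all tested genes. Apart from the called genes, *GINS3*, a GINS subunit, was lowest at 54, 51.3 and 54.4 CPM and 45.8, 48.6 and 46 CPM (-0.18, adjusted p = 0.0949), and an annotated antisense gene covers 14.4% of its exon bases. *CCNE1* was at 22.5, 18.7 and 19.4 CPM and 21.8, 18.6 and 19.9 CPM, with groups that overlapped.

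*POLD1*, the catalytic subunit of polymerase δ (chromosome 19 of hg19 from 50887461 to 50921275), stood at 103, 101 and 119.7 CPM in the RCH-ACV control samples and 128, 131 and 119 CPM with *SOX11* siRNA. It was called higher (log2 fold change 0.22, SE 0.06, adjusted p = 0.0402, edgeR), although 1 control sample and 1 sample with *SOX11* siRNA overlap. Another gene on the same strand shares 12.4% of its exon bases. Its partner *POLD2* was at 185, 171 and 172 CPM and 212, 206 and 175 CPM and was not called (0.17, adjusted p = 0.122).

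*RFC5*, a small subunit of the clamp loader (chromosome 12 of hg19 from 118451393 to 118470935), was at 89.8, 94.4 and 87.9 CPM in the control samples and 109.8, 104 and 102 CPM with *SOX11* siRNA (log2 fold change 0.22, SE 0.05, adjusted p = 0.0183, edgeR). *TK1* was at 106, 98.1 and 100.5 CPM and 118, 121 and 111 CPM (log2 fold change 0.20, SE 0.05, adjusted p = 0.0251, edgeR), the only gene of the 49 called higher in REH and in RCH-ACV, although its RCH-ACV call was lost under 6 of the 15 alternatives. In neither gene did the groups overlap. The log2 fold change of *RFC5* lay above 0 in all 3 lines (0.15, 0.16 and 0.22), without overlap in any, and was called in RCH-ACV alone.

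The other genes followed in every sample were not called in RCH-ACV. *CDT1* was at 70.4, 56.9 and 77.7 CPM in the control samples and 86.3, 85.2 and 73.7 CPM with *SOX11* siRNA, the highest log2 fold change of the 49 genes in this line (0.26, SE 0.09) but with groups that overlap (adjusted p = 0.0871, edgeR). *CDC6* was at 121, 126 and 113 CPM and 114, 120.0 and 123 CPM, and *MCM2* at 359, 340.4 and 367 CPM and 358, 378 and 375 CPM. *PCNA* was at 468, 491 and 475 CPM and 462, 465 and 454 CPM, groups that do not overlap, and *RRM2* at 333, 341 and 344 CPM and 327, 333 and 333 CPM. For *PCNA* and *RRM2* the log2 fold changes were -0.06 and -0.04 (95% confidence intervals -0.13 to 0.02 and -0.12 to 0.04), below 0 where REH had 0.10 and 0.13.

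The RCH-ACV count also rested on single samples. It was 1 without replicate 1 and 1 without replicate 2 of the samples with *SOX11* siRNA, and 2 without replicate 1 and 2 without replicate 2 of the control samples. Over all tested genes these fits called 519, 386, 441 and 460 in this order, in place of 991. Without replicate 3 of the samples with *SOX11* siRNA 9 replication genes were called, and 2518 of all genes. *CDT1*, *POLD2*, *FEN1* and *ORC4* were then called besides the 5. The *CDC7*, *CDT1*, *POLD1*, *POLD2* and *TK1* values of this replicate lay nearest to the control samples. *CCNE2* passed in each of the 6 fits and under all 15 alternatives, whereas *POLD1* was lost under 7 of them, and *RFC5* and *CDC7* under 4 each.

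**Figure D3:**
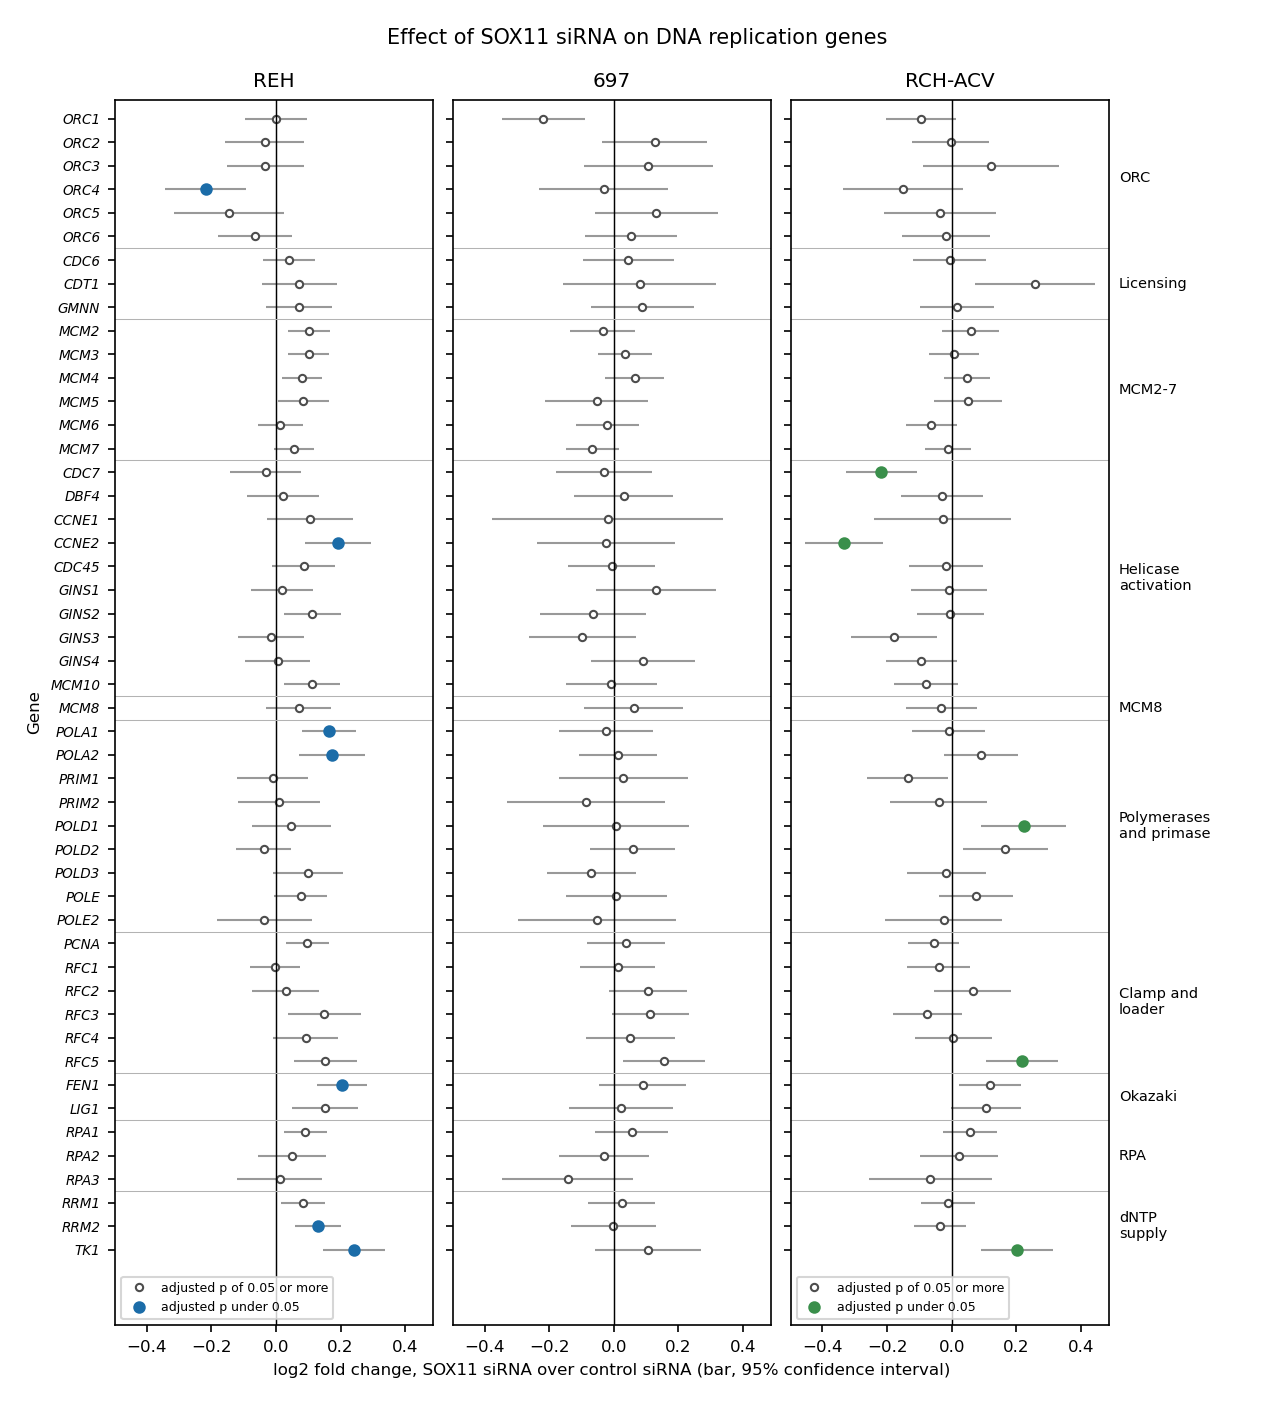
Log2 fold change of *SOX11* siRNA over control siRNA for the 49 genes (rows, by role) in the 3 lines, with 95% confidence intervals as bars. Filled points mark an adjusted p under 0.05. In REH the points lie mostly right of 0 except for ORC, in 697 none is filled, and in RCH-ACV *CCNE2* and *CDC7* lie left of 0.

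Whether the effect of the siRNA differed between the lines was tested with an interaction term over the 18 samples. Of the 49 genes 1, *CCNE2*, passed (adjusted p = 0.00949, edgeR's quasi-likelihood test), against 0.727% of 14026 tested genes. Its effect in REH exceeded that in RCH-ACV by 0.52 on the log2 scale (SE 0.09, adjusted p = 0.00381, edgeR), where 0.713% of all genes passed. The differences of 697 from REH and RCH-ACV, 0.21 (REH minus 697) and 0.31 (697 minus RCH-ACV), did not pass (adjusted p = 0.687 and 0.413), where 0.285% and 0.0998% of all genes did. Without replicate 2 of the RCH-ACV samples with *SOX11* siRNA the interaction of *CCNE2* was not called, and then 0 of the 49 genes passed.

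For the remaining 48 genes a call in one line and none in another does not show a difference between the lines. Missing the threshold of the interaction does not show equal effects either. *TK1*, called in REH and RCH-ACV, had an interaction adjusted p of 0.799, and *CDC7*, called in RCH-ACV, one of 0.48 (edgeR). Over the 49 genes 10 were called in at least 1 line and 2, *TK1* and *CCNE2*, in more than 1, *CCNE2* in opposite directions. The log2 fold change was above 0 in all 3 lines for 14 genes and below 0 in all 3 for 5. These counts across lines were not taken over all tested genes, so they have no background to be read against.

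**Figure D4:**
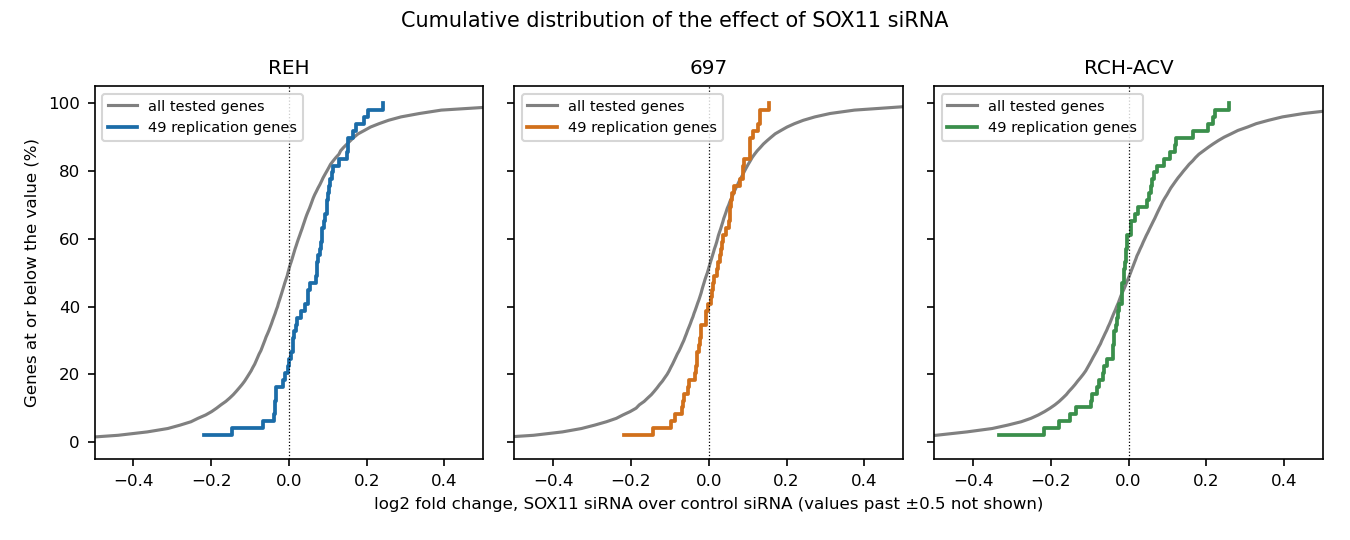
Cumulative percentage of genes at or below each log2 fold change, for the 49 replication genes (colored steps) and all tested genes (gray), by line. In REH the steps run to the right of the gray curve over most of their range (medians 0.07 and -0.0023), while in 697 and RCH-ACV both cross near 0. The steps are also steeper than the gray curve, and the median SE was 0.05, 0.07 and 0.05 for the 49 genes against 0.07, 0.10 and 0.08 for all genes.

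Other genes of the pathway were followed from lists. Of 36 further fork and origin genes 7 rose and 0 fell in REH, 0 were called in 697, and 3 rose and 2 fell in RCH-ACV. That is 19.4% higher in REH against 2.64% of all tested genes, and 8.33% higher and 5.56% lower in RCH-ACV against 3.68% and 3.97%, while 0.559% of all genes were called in 697. Those with the lowest p in REH were *DONSON*, *POLD4*, *RNASEH2B*, *CDCA5* and *DTL*, with log2 fold changes of 0.28, 0.37, 0.16, 0.16 and 0.14. *POLD4*, the smallest subunit of polymerase δ, was also higher in RCH-ACV (0.61, adjusted p = 0.00575, edgeR), with the mismatch repair gene *MSH6* (0.20) and *CHTF18* of an alternative clamp loader (0.32). *CLSPN*, the checkpoint mediator claspin, and the topoisomerase gene *TOP1* were lower there (-0.27 and -0.15). Of 12 other genes of nucleotide supply, the deoxycytidine kinase gene *DCK* rose (0.17) and *NME1* fell (-0.19) in REH, and *CMPK1* fell in RCH-ACV (-0.15, adjusted p = 0.0498, edgeR). In RCH-ACV the calls of *CMPK1*, *CHTF18*, *TOP1*, *CLSPN*, *MSH6* and *POLD4* were lost under 12, 8, 7, 5, 3 and 1 of the 15 alternatives. In REH that of *DTL* was lost under 8, *CDCA5* under 4, *RNASEH2B* and *DCK* under 2 each, *POLD4* and *NME1* under 1 each and *DONSON* under 0.

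The E2F, RB and CDK2 list of 21 genes had 8 higher and 0 lower in REH, 0 called in 697, and 0 higher and 2 lower in RCH-ACV. The share called higher in REH was 38.1% against 2.64% of all tested genes, and 9.52% were lower in RCH-ACV against 3.97%, with 0.559% of all genes called in 697. *E2F2*, an activating E2F, stood at 195, 203 and 203 CPM in the REH control samples and 247, 252 and 247 CPM with *SOX11* siRNA (0.31, SE 0.04, adjusted p = 7.47e-06, edgeR). In RCH-ACV it was called lower, with 252, 249.5 and 262 CPM and 219.5, 205 and 246 CPM (-0.19, SE 0.06, adjusted p = 0.0443, edgeR), a call that was lost under 7 of the 15 alternatives, with adjusted p-values up to 0.247. *TFDP2*, an E2F dimer partner, was likewise higher in REH (0.15) and lower in RCH-ACV (-0.32). The interaction was called for *TFDP2*, *E2F2* and *E2F8*, a repressive E2F higher in REH (0.31), with adjusted p = 9.57e-04, 0.00252 and 0.0438 (edgeR). *E2F1* was at 179.8, 177 and 179 CPM and 197, 199 and 196 CPM in REH (0.14, adjusted p = 0.0274, edgeR), a call lost under 7 of the 15 alternatives, and had log2 fold changes of -0.07 in 697 and -0.03 in RCH-ACV without a call. *E2F7* (0.27) and the CDK inhibitor gene *CDKN2C* (0.22) also rose in REH.

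Of 30 genes of G2 and mitosis, 6 rose and 0 fell in REH, led by the proliferation marker *MKI67* (0.25, adjusted p = 5.83e-04, edgeR) and the topoisomerase gene *TOP2A* (0.12), followed by *PRC1*, *NUSAP1* and *KIF11* (0.15, 0.12 and 0.12). The last 3 of these calls were lost under 7, 7 and 8 of the 15 alternatives, and those of *MKI67* and *TOP2A* under 1 each. The share called higher in REH was 20% against 2.64% of all tested genes, and in RCH-ACV 3.33% were called lower against 3.97%. In 697 0 were called, and in RCH-ACV *HMMR* alone was called, lower (-0.18, lost under 6 of the 15). The summed level of these 30 genes ranged from 8392 to 8436 CPM with *SOX11* siRNA and from 7859 to 8076 CPM with control siRNA in REH, groups that do not overlap. The part of cell cycle distribution in these values was not tested.

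Levels with control siRNA differed between the lines by up to 2.42 on the log2 scale (*CCNE1*). Per length (RPKM, here the CPM per kilobase of the canonical transcript), *PCNA* was highest in each line or next to *MCM7*, and *ORC4* and *MCM8* were among the 4 lowest in each line. REH had the highest mean for 32 of the 49 genes, RCH-ACV for 10 and 697 for 7, a count not taken over all genes. Between REH and 697, 37 genes differed (29 higher and 8 lower in REH), or 75.5%, against 76.3% of all 13686 tested genes. Between REH and RCH-ACV 39 did (31 higher and 8 lower in REH), or 79.6%, against 73.9% of all genes, and between 697 and RCH-ACV 33 (19 higher and 14 lower in 697), or 67.3%, against 64.2%. Over both directions together these shares of called genes are near the background. By direction the 49 genes were uneven in the pairs with REH (29 and 8, and 31 and 8), where all genes were nearly even. Genes higher and lower in REH made up 39.4% and 37% of all genes against 697 and 36.2% and 37.7% against RCH-ACV, and those higher and lower in 697 than in RCH-ACV 30.9% and 33.3%. With library size alone in place of TMM, which put the median of all genes at 0.15, 0.06 and -0.07 in place of 0.02, -0.01 and -0.01 for the 3 pairs in this order, 39 genes were higher and 4 lower in REH than in 697, 34 and 8 in REH than in RCH-ACV, and 16 and 19 in 697 than in RCH-ACV, where the median of the 49 genes turned from 0.06 to -0.0049.

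*CCNE1* had the widest range, with 21.8 ± 1.18 RPKM in REH, 10.3 ± 1.06 in RCH-ACV and 4.09 ± 0.303 in 697 (SD, n = 3 each). REH exceeded 697 by 2.42 on the log2 scale (SE 0.11, adjusted p = 3.62e-13, edgeR). *CCNE2* was lowest in 697 at 17.8 ± 0.257 RPKM, and its levels in REH and RCH-ACV, 30.1 ± 1.24 and 32.1 ± 1.14, did not differ beyond their spread (adjusted p = 0.132, edgeR). The RNA counted for both cyclin E genes was lowest in 697, though the counts of *CCNE2* may include reads of *INTS8* in each line.

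*ORC3* stood at 27.1 ± 1.65 RPKM in REH, 9.76 ± 0.675 in 697 and 7.39 ± 0.284 in RCH-ACV, each line differing from the other two (adjusted p of 0.00153 or lower, edgeR). *RFC3*, a loader subunit, went the other way, with 23.6 ± 0.431 RPKM in REH against 55.1 ± 2 in 697 and 49.4 ± 1.42 in RCH-ACV. These genes and *CCNE1* are the 3 that differed by over 1 on the log2 scale between REH and both other lines.

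The highest levels were those of the clamp and of helicase subunits. *PCNA* stood at 494 ± 17.9 RPKM in REH, 375 ± 9.06 in RCH-ACV and 332 ± 20.2 in 697, and *MCM7* at 339 ± 8.32, 292 ± 3.38 and 370.2 ± 3.22 RPKM in the same order. *MCM4* was highest in RCH-ACV at 253 ± 2.56 RPKM, against 171 ± 0.439 in REH and 175 ± 6.55 in 697, which did not differ beyond their spread (adjusted p = 0.399). *MCM5* had 128 ± 6.89, 78.5 ± 6.44 and 66.3 ± 4.5 RPKM in REH, 697 and RCH-ACV, and the 6 subunits of the ring spanned a 2.65-fold range of RNA level in REH, 4.72-fold in 697 and 4.4-fold in RCH-ACV. *FEN1*, called in REH with the siRNA, stood in the control samples of the 3 lines at 99.1 ± 1.22, 98.8 ± 4.22 and 102 ± 2.86 RPKM, with no pair past the threshold.

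For the other genes followed in every sample, control levels in REH, 697 and RCH-ACV were 87.9 ± 2.33, 55.6 ± 3.49 and 70.8 ± 2.84 RPKM for *TK1*, with all pairs past the threshold. *RRM2* had 102 ± 2.29, 75.2 ± 3.21 and 104 ± 1.61 RPKM, and its levels in REH and RCH-ACV did not differ beyond their spread (adjusted p = 0.478, edgeR). *CDC6* and *CDT1* were highest in REH, at 39.3 ± 0.879 and 45.8 ± 4.76 RPKM. *CDT1* did not differ between 697 and RCH-ACV beyond its spread (29.1 ± 3.6 and 25.6 ± 3.97 RPKM).

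**Figure D5:**
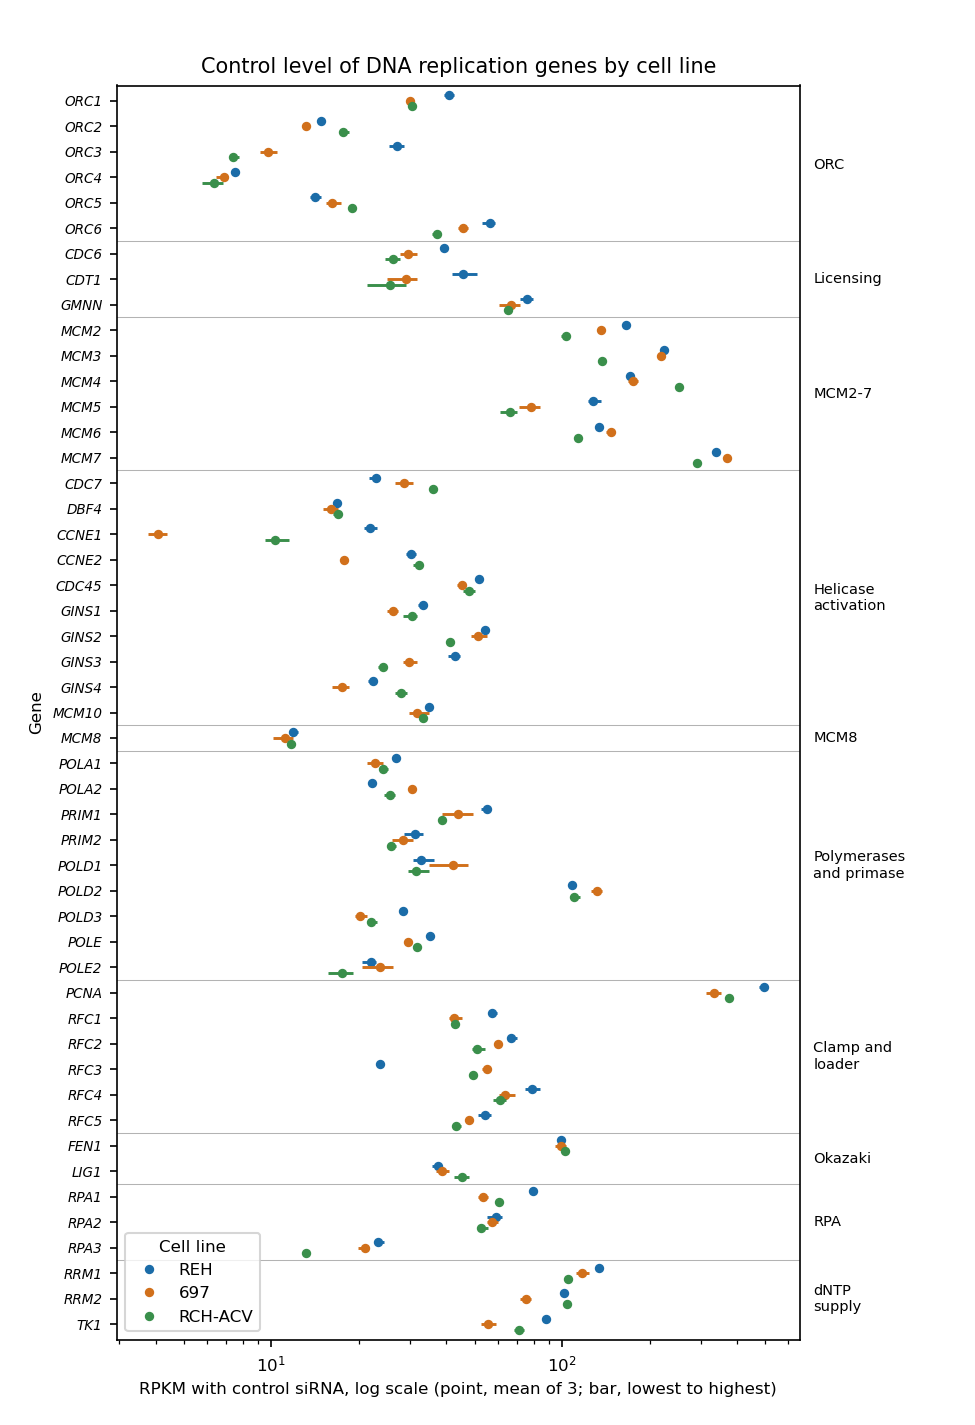
RPKM of the 49 genes in the control samples of each line on a log axis, with points at the mean of 3 and bars from the lowest to the highest sample. *PCNA* and *MCM7* lie above 290 RPKM in every line, *CCNE1* spreads from 4.09 RPKM in 697 to 21.8 in REH, and *FEN1* lies near 100 RPKM in all 3 lines.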

How the data were processed

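The authors trimmed and filtered the reads (FASTX Toolkit), aligned them to hg19 with STAR 2.5.3a, discarded reads at more than 2 locations and used HOMER to count them per RefSeq transcript; they deposited raw counts, 1 table per line, with 0 columns of other samples. The strand setting of the counting is not given in the sources used here.

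From these counts 1 transcript per gene was kept, that with most counts in all 18 samples (26941 genes, total counts 7039594 to 16592492, so that 3 counts, the floor, are 0.181 to 0.426 CPM, counting error only). Each line was fitted with edgeR 4.0.16 in R 4.3.3 (TMM, filterByExpr, quasi-likelihood F-test, Benjamini-Hochberg, threshold 0.05), the 18 samples together for the interaction and the 9 control samples for levels between lines. The siRNA groups hold 3 biological replicates each. Confidence intervals are 95% and from the same fits. RPKM used GENCODE canonical lengths, also where another transcript was counted (noncoding variants for *LIG1*, *ORC2* and *POLD3*). The fits were tested on simulated data. Alternatives were RLE, library size alone, 2 other filters, a replicate block, another transcript choice, DESeq2 1.42.0, 1 fit over all samples, a threshold of 0.01 and single samples left out; edgeR's earlier method was added after seeing the data. Named genes are all called members, up to 8 per line by p in every sample, 8 followed in every sample regardless of result (*CDC6*, *CDT1*, *MCM2*, *PCNA*, *RRM2*, *TK1*, *CCNE1*, *CCNE2*), and up to 5 called genes per pathway list and line plus *E2F1*. The other genes named for extreme values, and *INTS8*, were chosen after their values were seen. The members and lists were chosen with earlier results of these data known. Figures were drawn with matplotlib 3.10.9.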

Additional observations from a re-analysis of the deposited data

Results flagged for a closer look

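The effect of the siRNA differed between the cell lines for 1 of the 49 replication genes, 3 of the 21 E2F, RB and CDK2 genes and 3 of the 10 B-lineage markers, by the test of the interaction itself (edgeR's quasi-likelihood test over the 18 samples, adjusted over 14026 genes). Of all 14026 genes 0.727% passed. *CCNE2* (adjusted p = 0.00949) was higher in 3 of 3 REH samples with *SOX11* siRNA than in any control sample and lower in 3 of 3 RCH-ACV samples, with log2 fold changes of 0.19, -0.02 and -0.33 in REH, 697 and RCH-ACV. Its interaction was not called under a replicate block (adjusted p = 0.0536, edgeR). Nor was it without replicate 2 of the RCH-ACV samples with *SOX11* siRNA (adjusted p = 0.0627, edgeR). *INTS8* on the other strand covers 57.1% of the exon bases of *CCNE2*, so reads of both may have been added together. *E2F2* (adjusted p = 0.00252) had 0.31, -0.12 and -0.19 in REH, 697 and RCH-ACV, and *TFDP2* (adjusted p = 9.57e-04) had 0.15, -0.26 and -0.32. *E2F8* (adjusted p = 0.0438) had 0.31, -0.07 and 0.13, and for it the difference of REH from 697 passed (adjusted p = 0.031) while that from RCH-ACV did not (adjusted p = 0.394, edgeR). The B-lineage markers were *CD79A*, *IGLL1* and *RAG1* (adjusted p = 0.0258, 0.0255 and 0.0313, edgeR). Their log2 fold changes in REH, 697 and RCH-ACV were 0.13, 0.06 and 0.46, 0.03, -0.34 and 0.10, and 0.20, -0.41 and -0.21. With 3 samples in each group no single sample was tested as an outlier.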

How the results depend on the processing

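The 12 calls of replication genes kept their direction in all 180 values from the alternatives and passed the threshold in 124 of them. These values include edgeR's earlier method and leave out the threshold of 0.01. RLE, the filter of CPM above 1 and the other transcript choice left the counts of 7, 0 and 5 called genes in REH, 697 and RCH-ACV unchanged, and library size alone and no filter gave 6, 0 and 5. Under a replicate block they were 4, 0 and 3, and 0 genes passed for the interaction (*CCNE2*, adjusted p = 0.0536, edgeR). Same-numbered samples had correlations of deviations from -0.25 to 0.26. With 3 samples per group these values cannot decide whether the numbers pair the samples. DESeq2 called 3, 0 and 3, the threshold of 0.01 left 2, 0 and 1, and 1 fit over all 18 samples 2, 1 (*ORC1*) and 4. With single samples left out the counts ranged from 2 to 8 in REH, 0 to 0 in 697 and 1 to 9 in RCH-ACV. Over all genes they ranged from 299 to 521, 25 to 71 and 386 to 2518. The count for the interaction ranged from 0 to 1, and the causes were not tested. The same fits gave control-level counts of 34 to 40 (REH and 697), 36 to 41 (REH and RCH-ACV) and 29 to 35 (697 and RCH-ACV). *CCNE2* had interaction adjusted p-values from 0.00126 to 0.0627. The median of the 49 genes in REH was 0.062 with library size alone, where that of all genes was -0.01. Over all genes the block left 479, 29 and 690 calls in number, in place of 595, 68 and 991, and DESeq2 gave 315, 85 and 577. The precision of 3 samples per group, a median SE of 0.05 to 0.07 on the log2 scale, limits which of these small differences could be called.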
